A study of Caenorhabditis elegans with 4 samples.

Results

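The 10 genes that anchor body wall muscle and epidermis to each other are followed here in whole-embryo RNA of *Caenorhabditis elegans*. They were chosen by name, with earlier results of these data known, as components of integrin dense bodies or of fibrous organelles. All 10 were found among the 42048 genes of the table. RNA was sequenced from 2 libraries of *meg-1 meg-2* embryos, from worms that carried the *meg-1(vr10)* allele and were fed bacteria making *meg-2* dsRNA, and from 2 libraries of wild-type embryos, from N2 worms fed bacteria with the empty L4440 vector. Worms of both genotypes were grown from synchronized L1 larvae at 20°C to young adults, and embryos were released from the adults by bleaching. No label gives the stage of the embryos collected. For large cultures, the methods of the paper describe a harvest of early embryos, with no cell stage given. MEG-1 and MEG-2 are disordered proteins of the germ plasm, and the comparison asks which transcripts change in the embryo when *meg-1* is mutant and *meg-2* is depleted by RNAi.

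Body wall muscle of *C. elegans* pulls on the cuticle through a chain of attachments. Inside the muscle cell, actin filaments end at dense bodies, which are built on an integrin receptor that grips the basement membrane. Across that membrane, the thin epidermis holds fibrous organelles, hemidesmosome-like structures in which a receptor on the basal side, intermediate filaments in the middle and receptors on the apical side carry the force on to the cuticle. Embryos that lack dense body genes of the Pat class are paralysed and stop elongating, and loss of fibrous organelle genes lets the muscle pull free of the epidermis.

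Levels are given in fpm, the read count scaled by the library's DESeq2 size factor and by a sequencing depth common to all libraries. Libraries are named A and B within a genotype because their replicate labels could not be matched. The libraries held between 20662429 and 26017429 reads on genes. The members had from 1815 to 70301 reads in a library. As a check of the labels, *meg-1* had 0.841 and 0.896 fpm in *meg-1 meg-2* and 73.5 and 92.9 fpm in wild type, and *meg-2* had 6.24 and 8.56 fpm in *meg-1 meg-2* and 19.6 and 25.96 fpm in wild type. The wild-type pair was the more variable. Over genes of at least median level, log2 differences had an SD of 0.09 within the *meg-1 meg-2* pair and 0.24 within the wild-type pair. Genes with a mean of at least 1 fpm, 12734 in all, were compared with limma on log2(fpm + 0.5), and a gene was called at a Benjamini-Hochberg adjusted *P*-value below 0.05.

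Of the 10 genes, 5 fell in *meg-1 meg-2* embryos and 0 rose. Those that fell were the 4 fibrous organelle genes, *let-805*, *mup-4*, *mua-3* and *vab-10*, and 1 of the 6 integrin and adhesome genes, *pat-2*. Over all genes tested, 7.84% were called lower and 13.8% higher. Both *meg-1 meg-2* libraries lay below both wild-type libraries for 9 of the 10 genes, the exception being *pat-3*, against 30.1% of all genes tested. When a change of at least 1.5-fold was required at an unadjusted limma *P*-value below 0.05, a criterion that 3.12% of all genes met downwards, *let-805* was the 1 member that passed. The median log2 fold change was −0.52 over the 4 fibrous organelle genes and −0.22 over the 6 integrin and adhesome genes, beside 0.01 over all genes tested. With 2 libraries against 2, an exact two-sided permutation test of a single gene cannot go below *P*=0.333, so the calls rest on a spread estimated by limma over many genes. The number called lower was 9 when wild-type library A or wild-type library B was left out (beside 14% and 25.9% of all genes) and 0 when *meg-1 meg-2* library A or *meg-1 meg-2* library B was left out (0.126% and 0.11% of all genes), which leaves the wider spread of the wild-type pair as the error (3 members then had an unadjusted *P*-value below 0.05 in limma). It was 0 without a filter on low values (0.00354% of all genes), with 7 members at an unadjusted limma *P*-value below 0.05, and 1, *let-805*, without limma's variance trend (2.61% of all genes) or on the FPKM scale (1.52%). No share of all genes was counted for the unadjusted counts of 3 and 7 members, so these counts have no background. RNA came from whole embryos, so fewer cells of a type and less RNA per cell cannot be told apart.

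**Figure D1:**
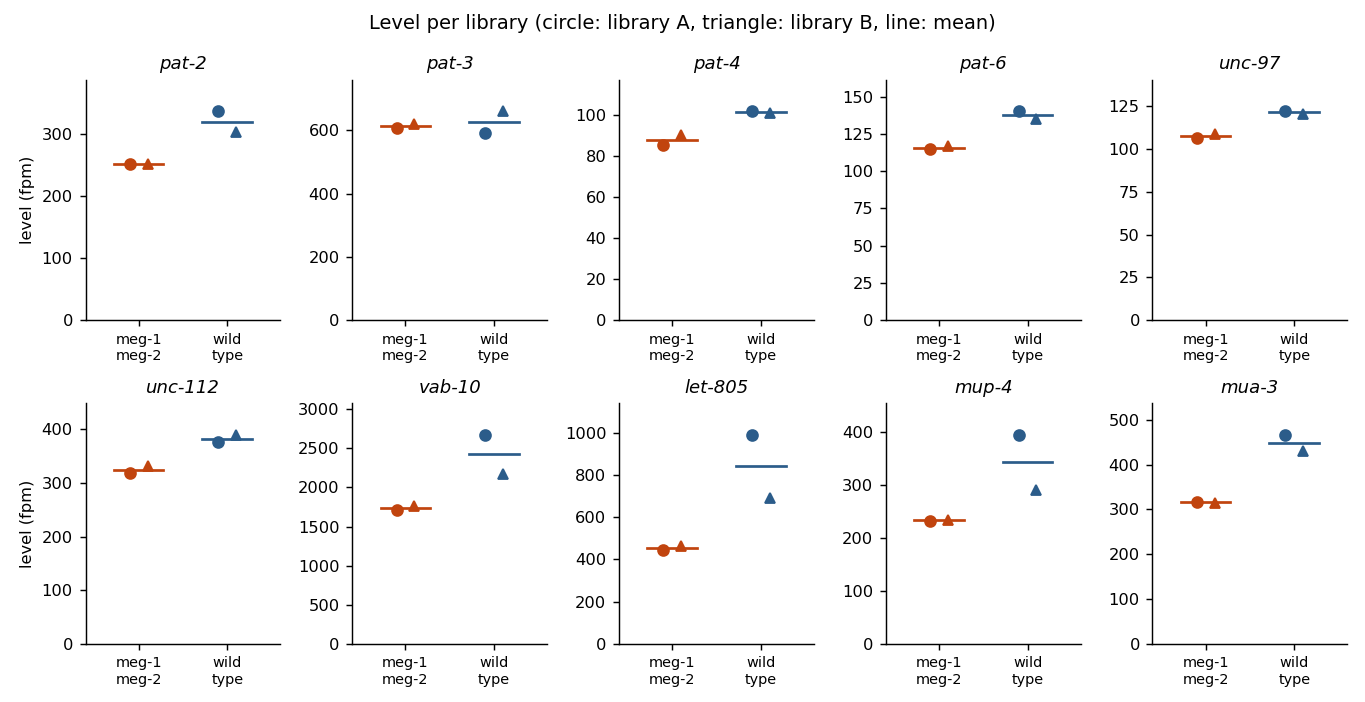
Level of each of the 10 genes in fpm (vertical axes from 0, 1 scale per gene) in the *meg-1 meg-2* libraries on the left and the wild-type libraries on the right of each panel. Circles are library A, triangles library B and lines the mean of both; the *meg-1 meg-2* points lie below both wild-type points in every panel but that of *pat-3*.

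*let-805* encodes myotactin, the transmembrane protein on the basal side of the epidermis that keeps fibrous organelles in register with the underlying muscle. The gene (WBGene00002915) lies on the plus strand of chromosome III, from 2658083 to 2681112 of WBcel235. *let-805* had 444 and 463 fpm in *meg-1 meg-2* and 989.7 and 689 fpm in wild type. The *meg-1 meg-2* libraries nearly coincided, whereas wild-type library A was 1.44 times library B, and the lower wild-type value was still well above both mutant values. The means were 454 ± 13.01 fpm in *meg-1 meg-2* and 839.5 ± 212 fpm in wild type (SD, *n*=2 each), so the transcript was 46.0% lower. The log2 fold change was −0.86, with a 95% interval from −1.11 to −0.62 (limma adjusted *P*=5.34e-08). It was −1.13 against wild-type library A alone and −0.60 against library B alone. The adjusted *P*-value of *let-805* was much larger in other fits: 0.0187 in edgeR, 0.00915 in DESeq2 and 0.0267 in limma without its variance trend. Of all genes tested, 0.424% had a lower log2 fold change than *let-805*.

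*vab-10* encodes the spectraplakins of the worm, from which alternative splicing makes a plectin-like form in the fibrous organelles and a microtubule-binding form in the epidermis. WBcel235 lists 14 transcripts for *vab-10* (WBGene00006876), on the minus strand of chromosome I from 11747424 to 11804991, and the reads were counted per gene, so the forms were not separated. *vab-10* had 1712 and 1768 fpm in *meg-1 meg-2* and 2674 and 2176 fpm in wild type, with the groups apart. The means were 1740.0 ± 39.5 fpm in *meg-1 meg-2* and 2425 ± 353 fpm in wild type (SD, *n*=2 each). The log2 fold change was −0.47, with a 95% interval from −0.73 to −0.21 (limma adjusted *P*=0.00592), a transcript 28.3% lower in *meg-1 meg-2*. Here, too, wild-type library A was the highest of the 4.

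*mup-4* and *mua-3* encode related transmembrane proteins of the apical fibrous organelle, where the epidermis is tied to the cuticle. *mup-4* (WBGene00003497, chromosome III, 7479680 to 7489105 of WBcel235, minus strand) had 232 and 234 fpm in *meg-1 meg-2* and 395 and 291 fpm in wild type. Its log2 fold change was −0.54 (95% interval −0.78 to −0.30, limma adjusted *P*=6.46e-04), which is 32.1% lower. *mua-3* (WBGene00003482, chromosome III, 10160697 to 10183529, plus strand) had 317 and 314 fpm in *meg-1 meg-2* and 466 and 429 fpm in wild type, and its log2 fold change was −0.50 (95% interval −0.74 to −0.27, limma adjusted *P*=0.00116), which is 29.5% lower. The wild-type libraries differed less for *mua-3* than for *mup-4*, with a log2 difference of 0.12 between A and B against 0.44. Against wild-type library B alone the log2 fold change was −0.44 for *mua-3* and −0.32 for *mup-4*.

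The integrin receptor of the dense body pairs the α chain PAT-2 with PAT-3, the β chain that the worm also uses with its other α chain, INA-1. *pat-2* (WBGene00003929, chromosome III, 8818899 to 8825266, plus strand) had 253 and 252 fpm in *meg-1 meg-2* and 338 and 304 fpm in wild type. The 2 mutant values were almost equal and lay below both wild-type values, and the log2 fold change was −0.34 (95% interval −0.58 to −0.10, limma adjusted *P*=0.0302), which is 21.3% lower. *pat-3* (WBGene00003930, chromosome III, 3908931 to 3914149, minus strand) had 608 and 619 fpm in *meg-1 meg-2* and 593 and 661 fpm in wild type. Its groups overlapped, with both mutant values between the wild-type values, and the log2 fold change was −0.03 (95% interval −0.27 to 0.21, limma adjusted *P*=0.880). Its sign turned to 0.05 without wild-type library B. *ina-1*, which is no member, had a log2 fold change of −0.12 (95% interval −0.36 to 0.11). Per kilobase of the deposited length, the *pat-2* level was 0.274 and 0.268 of that of *pat-3* in *meg-1 meg-2*, against 0.376 and 0.303 in wild type. The receptor's specific α chain was thus lower relative to the shared β chain in both mutant libraries, by about the gap between the pair of wild-type libraries.

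The adhesome binds the tail of the β chain from the inside. UNC-112 is the kindlin of the worm, PAT-4 its integrin-linked kinase, UNC-97 its PINCH and PAT-6 its parvin, and the last 3 form a complex. *unc-112* (WBGene00006836, chromosome V, 14691855 to 14696654) had 318 and 331 fpm in *meg-1 meg-2* and 375 and 389.8 fpm in wild type. *pat-4* (WBGene00003931, chromosome III, 89453 to 94809) had 85.3 and 90.3 fpm in *meg-1 meg-2* and 102 and 101 fpm in wild type. The groups were apart for both genes, but the gaps were small. *unc-97* (WBGene00006826, chromosome X, 5593133 to 5594965) had 107 and 109 fpm in *meg-1 meg-2* and 122 and 121 fpm in wild type. *pat-6* (WBGene00003932, chromosome IV, 261886 to 264232) had 115 and 117 fpm in *meg-1 meg-2* and 140.3 and 135 fpm in wild type. The 4 genes were between 11.2% (*unc-97*) and 15.9% (*pat-6*) lower in *meg-1 meg-2* by their means, and none passed the test.

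The log2 fold changes of these 4 adhesome genes lay close together, at −0.17 for *unc-97*, −0.21 for *pat-4*, −0.24 for *unc-112* and −0.25 for *pat-6*, with limma adjusted *P*-values of 0.332, 0.239, 0.142 and 0.140. The 95% intervals reached from −0.50 (*pat-6*) to 0.08 (*unc-97*), and each of the 4 included −0.34, the value of *pat-2*. *unc-97* lies on the plus strand and the other 3 genes on the minus strand. The calls for *pat-6* and *unc-112* depended on the scaling. With total reads in place of size factors, which shifted the median of all genes to −0.06 and gave 1263 genes higher and 1160 lower in place of 1760 higher and 998 lower, both were called lower (log2 fold changes of −0.32 and −0.30), beside 9.11% of all genes. On the recovered reads, edgeR's quasi-likelihood test called 7 members lower, beside 7.2% of all genes, and DESeq2 called 6, beside 7.49%. In edgeR, *pat-6* had an adjusted *P*-value of 0.0392 and *unc-112* one of 0.0336. Those of the other members called by edgeR were 0.0142 (*mua-3*), 0.0187 (*let-805*), 0.0303 (*pat-2*), 0.0343 (*vab-10*) and 0.0360 (*mup-4*).

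Transcript levels were also set against each other within each structure. Per kilobase, *unc-97* stood at 1.67 and 1.61 times *pat-4* in *meg-1 meg-2* and at 1.603 and 1.598 times *pat-4* in wild type. *pat-6* stood at 1.00 and 0.993 times *unc-97* in *meg-1 meg-2* and at 1.07 and 1.04 times *unc-97* in wild type. Among the fibrous organelle genes, *mua-3* stood at 0.758 and 0.744 of *mup-4* per kilobase in *meg-1 meg-2* and at 0.655 and 0.818 in wild type, so the groups overlapped. *let-805* was at 0.423 and 0.427 of *vab-10* per kilobase in *meg-1 meg-2* and at 0.604 and 0.517 of it in wild type, and the ratio of *let-805* to *pat-3* was 0.131 and 0.134 in *meg-1 meg-2* and 0.3005 and 0.188 in wild type. The groups did not overlap for either of these ratios of *let-805*. Nor did they for *unc-97* to *pat-4* or *pat-6* to *unc-97*, which differed by less. Among the other adhesome ratios, the groups overlapped for *pat-6* to *pat-4* and for *unc-112* to *pat-4*. The share of all gene pairs with groups apart was not counted.

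**Figure D2:**
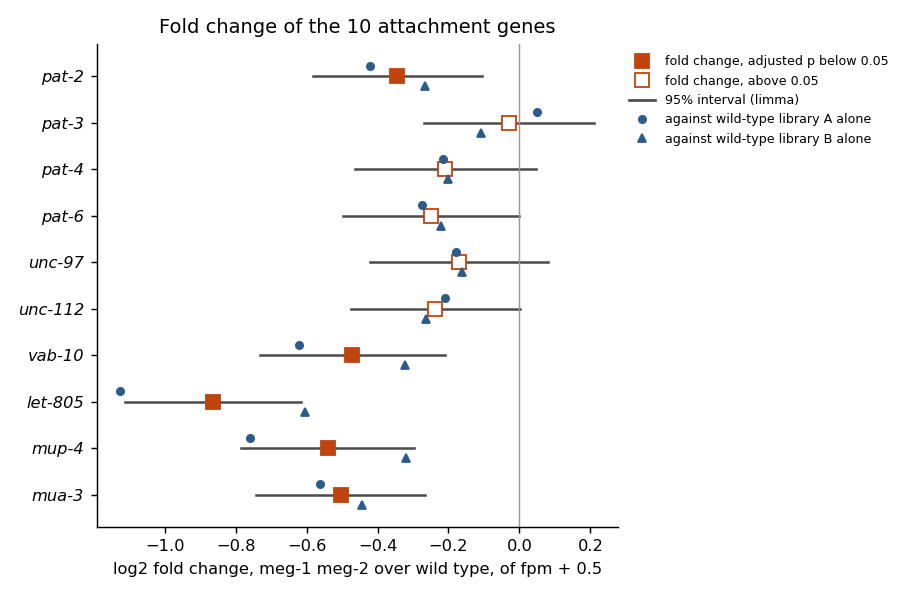
Log2 fold change between *meg-1 meg-2* and wild type (horizontal axis, negative where lower in *meg-1 meg-2*) for the 10 genes, with its 95% interval from limma; filled squares passed an adjusted *P*-value of 0.05. Blue points compare both mutant libraries with wild-type library A (circles) or B (triangles) alone; *let-805* ranges from −1.13 to −0.60 between them, and *pat-3* lies on both sides of 0.

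Compared per kilobase of the deposited length, the 10 genes spanned less than 1 order of magnitude. The highest was *pat-3*, at 250.2 and 255 FPKM in *meg-1 meg-2* and 244 and 272 FPKM in wild type. It was followed by *unc-112*, with 147 and 153 FPKM in *meg-1 meg-2* and 174 and 180.2 FPKM in wild type, and then by *pat-6* and *unc-97*, whose values overlapped in *meg-1 meg-2*, between 101.8 and 104.1 FPKM. *vab-10* came next in *meg-1 meg-2*, at 77.7 and 80.2 FPKM, but reached 121 and 98.7 FPKM in wild type, where its range crossed those of *pat-6* and *unc-97*. *pat-2* and *pat-4* lay between 60.9 and 68.7 FPKM in *meg-1 meg-2* and between 72.2 and 91.8 FPKM in wild type. The last places were held by *mup-4* (means of 36.9 FPKM in *meg-1 meg-2* and 54.3 FPKM in wild type), *let-805* (33.6 FPKM in *meg-1 meg-2* and 62.2 FPKM in wild type) and *mua-3* (27.7 FPKM in *meg-1 meg-2* and 39.3 FPKM in wild type). The order of *let-805* and *mup-4* differed between the genotypes, *let-805* being the lower of the pair in both *meg-1 meg-2* libraries and the higher in both wild-type libraries.

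The 4 fibrous organelle genes are also the 4 longest members, from 6315 bp (*mup-4*) to 22035 bp (*vab-10*), whereas the other 6 are between 1047 bp (*unc-97*) and 3681 bp (*pat-2*) long. Long genes in general were lower in *meg-1 meg-2*. Of the 43 tested protein-coding genes of at least 10000 bp, 55.8% were called lower and the median log2 fold change was −0.39. Of the 4798 under 1000 bp, 3.63% were called lower and the median was 0.07. *let-805*, *mua-3* and *vab-10* belong to the class of at least 10000 bp, in which 1 gene had a lower log2 fold change than *let-805*, 9 had a lower one than *mua-3* and 11 a lower one than *vab-10*. Without these 3 members, 21 of the 40 genes left in the class were called lower, and the median was −0.34. *mup-4* belongs to the 115 genes from 6000 to 10000 bp, with a median of −0.17, and 9 of these had a lower value. The class of at least 10000 bp also differed between the wild-type libraries, with a median log2 difference of 0.14 between A and B, against −0.12 in genes under 1000 bp.

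After each library's trend with length had been removed, a setting added after the values were seen, *let-805* and *mup-4* were the members still called lower, beside 7.95% of the protein-coding genes tested, with log2 fold changes of −0.63 (limma adjusted *P*=2.40e-04) and −0.41 (adjusted *P*=0.0125). *mua-3* then stood at −0.29 (adjusted *P*=0.0750), *vab-10* at −0.16 (adjusted *P*=0.448) and *pat-2* at −0.28 (adjusted *P*=0.0810). The fall of *let-805* and of *mup-4* was thus found within the length trend too, whereas the calls for *mua-3*, *vab-10* and *pat-2* were not.

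**Figure D3:**
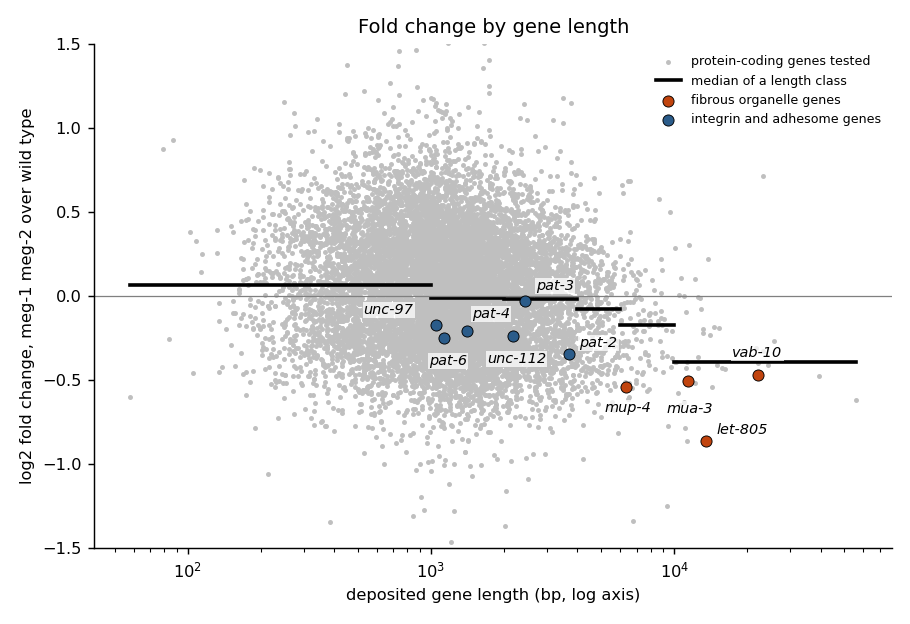
Log2 fold change between *meg-1 meg-2* and wild type (vertical axis, negative where lower in *meg-1 meg-2*) against the deposited gene length in bp (log axis) for the tested protein-coding genes in grey, with the median of each length class as a black bar; 13 genes lie beyond the vertical axis. The fibrous organelle genes (orange) sit among the longest genes, where the median falls to −0.39, and *let-805* lies far below that bar.

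Other genes of the dense body and M-line fell in part. Of 22 such genes, 11 were lower and 0 higher in *meg-1 meg-2*, with a median log2 fold change of −0.37. Limma called 7.84% of all genes tested lower. This list and those below were chosen with earlier results of these data known, so their counts describe the data and test nothing. The largest falls were those of *lim-8*, a LIM domain protein of the M-line and dense body (−0.71), *zyx-1*, the zyxin of the worm (−0.69), and *deb-1*, its vinculin (−0.55). *deb-1* had 194 fpm as the mean of the *meg-1 meg-2* libraries and 287 fpm as that of the wild-type libraries. *tln-1*, the talin that links the same β chain to actin, stood at −0.41 on the log2 scale (limma adjusted *P*=0.0107) and *atn-1*, the α-actinin of the dense body, at −0.44 (limma adjusted *P*=0.0110). Both of these act beside the members that did not pass the test, and were named after their values were seen.

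Of 11 further genes of the fibrous organelle found in the table, 4 were lower and 0 higher, with a median of −0.32. *pat-12*, which encodes a component of the organelle, had a log2 fold change of −0.52, *eps-8* one of −0.47 and *ifa-3*, an intermediate filament gene, one of −0.46. *ifb-1*, whose protein is the partner of the other epidermal intermediate filament chains, was the fourth, at −0.35. In the basement membrane between muscle and epidermis, 7 of 14 genes were lower and 0 higher, with a median of −0.37, led by *let-2*, a chain of type IV collagen (−0.65), *unc-52*, the perlecan to which the dense body integrin is anchored (−0.63), and *him-4*, a hemicentin (−0.43). *unc-52* averaged 479 fpm in *meg-1 meg-2* and 756 fpm in wild type, with 910.4 fpm in wild-type library A and 602 fpm in library B, the same order of libraries as for *let-805*.

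Genes that drive or bear epidermal elongation also fell in part. Of 22, 8 were lower and 0 higher in limma, with a median of −0.26, and edgeR called 15 lower, beside 7.2% of all genes tested in edgeR. *ajm-1*, a gene of the apical junction, had a log2 fold change of −0.54. Both *meg-1 meg-2* libraries lay below both wild-type libraries in 17 of the 22 and above them in 4. Over all genes tested, the genotypes were apart in this way for 65.5%, with *meg-1 meg-2* the lower for 30.1%. The 4 genes that lay above were *fem-2* at 0.30, *nmy-2* and *mlc-4* at 0.24 and *hmp-2* at 0.16, and none of the 4 passed the test after adjustment. Each of these 4 groups had a median below that of all genes tested, 0.01. Of their 69 tested genes together, limma called 30 lower and 0 higher, beside 7.84% lower and 13.8% higher among all genes.

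Markers of the 2 tissues that make the attachments were counted beside them. Limma called 7.84% of all genes tested lower and 13.8% higher, and edgeR called 7.2% lower. Of 22 genes of the body wall muscle sarcomere and its formation, 10 were lower and 0 higher in limma and 6 were lower in edgeR (median −0.33), with *unc-15*, the paramyosin gene, at −0.94, *unc-54*, a muscle myosin heavy chain, at −0.81 and *lev-11*, the tropomyosin, at −0.73. *hlh-1*, the MyoD homolog of the muscle lineage, had a log2 fold change of 0.06 (95% interval −0.22 to 0.35), with overlapping groups. Of 16 epidermal markers, 13 were lower and 0 higher (median −0.47), with *grh-1* at −0.81, *che-14* at −0.78 and *let-653* at −0.72. The epidermal fate factors *elt-1* (0.19, 95% interval −0.06 to 0.44) and *lin-26* (0.03, 95% interval −0.22 to 0.27) did not pass the test. In the same list, *nhr-23* (−0.54) and *elt-3* (−0.47) were called lower, and *nhr-25* (−0.32) was not called. All 38 markers of both tissues averaged at least 1 fpm. Over these 38 genes and the 69 above, 107 in all, 1 gene was higher at an unadjusted limma *P*-value below 0.05, and 0 were in edgeR or DESeq2 after adjustment. Of all 12734 genes tested, edgeR called 1184 higher and DESeq2 1392. The share of all genes at the unadjusted threshold was not counted.

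Transcripts of earlier stages moved the other way. Among all genes tested, limma called 13.8% higher and 7.84% lower. Of 14 maternal transcripts tested, 13 were higher and 0 lower in *meg-1 meg-2* (median 0.54), and of 14 early zygotic transcripts tested, 10 were higher and 0 lower (median 0.55). *oma-2* (0.86), *cbd-1* (0.72) and *egg-2* (0.63) led the maternal transcripts, and *tbx-37* (0.69), *vet-1* (0.68) and *end-1* (0.68) the early zygotic ones. Summed over the whole maternal list of 16 genes, the level was 2000.2 and 2013 fpm in *meg-1 meg-2* and 1200.0 and 1529 fpm in wild type, and over the early zygotic list 1725 and 1639.9 fpm in *meg-1 meg-2* and 979.6 and 1249.8 fpm in wild type. Of the 28 tested genes of both lists, 0 were lower at an unadjusted limma *P*-value below 0.05, and edgeR called 15 higher and 0 lower. Of all 12734 genes tested, edgeR called 1184 higher and 917 lower. The share of all genes at the unadjusted threshold was not counted. The part that a difference in embryo age between the collections has in the fall of the attachment genes was not tested.

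The 2 wild-type libraries also differed from each other in these genes. For 8 of the 10 members the order was *meg-1 meg-2* lowest, then wild-type library B, then wild-type library A, an order found for 20.2% of all genes tested. For *pat-4* and *unc-97* the levels of A and B were only 1.01 times apart, and *unc-112* had A and B the other way round, and *pat-3* had neither order. Summed over the 4 fibrous organelle genes, the level was 2706 and 2778 fpm in *meg-1 meg-2* and 4525 and 3585 fpm in wild-type libraries A and B. Summed over the 6 integrin and adhesome genes it was 1486 and 1518 fpm in *meg-1 meg-2* and 1670.2 and 1711 fpm in wild-type libraries A and B. The fibrous organelle sum thus varied between the wild-type libraries as the muscle sarcomere sum did (4822 and 4850.3 fpm in *meg-1 meg-2*, 7974 and 5662 fpm in wild type), with A above B, whereas the integrin and adhesome sum, like that of the epidermal markers (4973 and 5336 fpm in *meg-1 meg-2*, 6866 and 7017 fpm in wild type), was slightly higher in B. For the integrin and adhesome genes this rested on *pat-3*: without it the sum was 878 and 899 fpm in *meg-1 meg-2* and 1078 (A) and 1050.2 fpm (B) in wild type. Of the 6 genes, 4 were higher in A, and the share of all genes higher in A was not counted. The median log2 difference of A over B was −0.10 over all genes tested. It was 0.37 over the fibrous organelle genes and 0.01 over the integrin and adhesome genes.

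**Figure D4:**
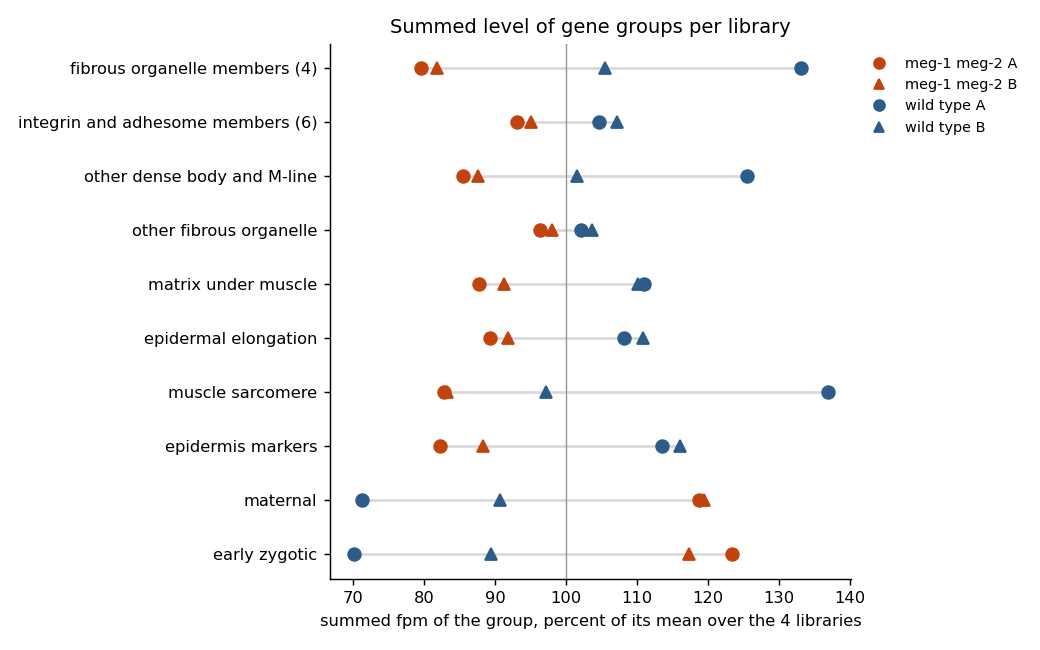
Summed fpm of each gene group per library, as a percent of the group's mean over the 4 libraries (horizontal axis); orange marks are *meg-1 meg-2* and blue marks wild type, circles library A and triangles library B. For the fibrous organelle members the libraries stand at 79.6% and 81.7% in *meg-1 meg-2* and at 133% and 105% in wild type, and the maternal and early zygotic groups show the opposite order.

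Reads on 3 members can be shared with an antisense protein-coding gene, since the strand setting of the counting is not given in the sources used here. In WBcel235 the exons of *pat-2* overlap those of *F54F2.9* by 41 bp, those of *unc-112* overlap *gasr-8* by 122 bp and those of *vab-10* overlap *Y47H9B.2* by 28 bp. *F54F2.9* was counted 1308 and 1095 times in *meg-1 meg-2* and 1131 and 1285 times in wild type, *gasr-8* 62 and 55 times in *meg-1 meg-2* and 100 times in each wild-type library, and *Y47H9B.2* 162 and 128 times in *meg-1 meg-2* and 71 and 84 times in wild type. *let-805*, *mup-4*, *mua-3* and the other 4 members overlap no protein-coding gene on either strand.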

How the data were processed

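The data are 1 table of 42048 genes, of which 41759 identifiers matched the WBcel235 annotation. Embryo RNA (1 µg per library) was depleted of rRNA, mixed with ERCC spike-in RNA (0 such rows are in the table) and made into libraries with a stranded kit and 12 cycles of PCR. According to the methods of the paper and the submitters' processing notes, reads were aligned to ce10 with HISAT2, counted on genes with HTSeq-count and compared with DESeq2. Versions, annotation release and strand setting are not given in the sources used here. Per genotype, the authors deposited a signal, the mean fpm of its 2 libraries, and the same mean divided by the gene length in bp. The authors deposited a log2 fold change and an adjusted *P*-value (p-value) of their own comparison, and neither was used. FPKM here are per kb of the deposited length, a coding length for most genes (91.6% of the lengths of tested protein-coding genes are multiples of 3).

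Whole reads per library were recovered from the means, each of which is a whole number of reads times one step plus a whole number times another. 1 pair was found for 100% of wild-type genes and for 42047 of 42048 *meg-1 meg-2* genes, the other being settled by the definition of the size factors. A count of 0 allows up to 3 reads, from 0.114 to 0.149 fpm, counting error only. The main test was limma 3.58.1 (R 4.3.3) with lmFit and eBayes with a mean trend over the 4 libraries. edgeR 4.0.16 and DESeq2 1.42.0 on the recovered reads, other pseudocounts (0.05 and 5 fpm), filters (none and 10 fpm), scalings, variances, thresholds and leaving out each library were alternatives. The recovery and the fits were tested on simulated data. The labels call the second library of a genotype a biological replicate and say no more. The *P*-values of the main test rest on a spread between these libraries that limma estimated over many genes, not on the values of a single gene alone. The named genes are all members, *meg-1* and *meg-2*, and in each list the 3 largest changes called in each direction, except 2 of the epidermal elongation list that are not reported here. *ina-1*, *tln-1*, *atn-1*, *ifb-1*, *hlh-1*, *elt-1*, *lin-26*, *nhr-23*, *elt-3*, *nhr-25*, *fem-2*, *nmy-2*, *mlc-4* and *hmp-2* were named after their values were seen. Genes that overlap a member are named too. Members, lists and rules were chosen with earlier results of these data known. Coordinates are those of WBcel235, matched by gene identifier, and none was converted from ce10.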

Additional observations from a re-analysis of the deposited data

How the results depend on the processing

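Of the 19 alternatives, 13 recompute the log2 fold changes and 6 change only the test or its genes. Under those 13, 9 of the 10 members kept a negative log2 fold change, and *pat-3* did under 12, ranging from −0.11 to 0.05 (0.0499 without wild-type library B) when 1 library was left out. The main values were 1760 genes higher, 998 genes lower, 0 members higher and 5 members lower. With all genes tested, 3 were higher, 1 was lower and 0 members were lower. On the FPKM scale, 335 genes were higher, 199 were lower and 1 member, *let-805*, was lower. Without a variance trend these were 654, 332 and 1 (*let-805*), and with a change of at least 1.5-fold at an unadjusted limma *P*-value below 0.05 they were 704, 397 and 1 (*let-805*). After quantile normalization 9 members were lower, all but *pat-3*, beside 1060 of the 12734 genes tested. After removal of the length trend 2 members were lower, beside 963 of 12111 protein-coding genes. When 1 library was left out, the counts ranged from 27 to 4566 genes higher, from 14 to 3296 lower and from 0 to 9 members lower, the library that stood alone being assumed to vary like the other genotype. Total-read and TMM scaling and edgeR called 7 members lower, beside 1160, 926 and 917 of the 12734 genes. DESeq2 called 6, beside 954 genes, and 0 members were higher in any setting. The cause of these differences was not tested, except that a fit without either *meg-1 meg-2* library takes its spread from the wild-type pair. No paired analysis was possible because only genotype means are given in the table, so no replicate number can be tied to a library.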

Other observations

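Marker lists of tissues that do not build the attachments were also counted. Of 10 gut markers, 3 were lower (*cpr-6* at −0.49, *pept-1* at −0.48 and *ifb-2*, an intestinal intermediate filament gene, at −0.39 on the log2 scale) and 1 was higher (*end-3*, an early endoderm factor, at 0.84), by limma at an adjusted *P*-value below 0.05. Of 7 pharynx markers tested, 3 were lower, the gene listed as *F47B7.7* at −0.69, *tnt-4* at −0.43 and *myo-1* at −0.42, although the groups of *myo-1* overlapped and edgeR called 0 of the 7. Over all genes tested, limma called 7.84% lower and 13.8% higher. The median log2 fold change was −0.26 over the gut markers and −0.42 over the pharynx markers. The pharynx median was below that of the muscle sarcomere list (−0.33) and above that of the epidermal markers (−0.47). Of 10 neuron markers, 0 were called in either direction by limma, 3 were lower at an unadjusted *P*-value below 0.05 and 1 was lower in edgeR, with a median log2 fold change of −0.25. The share of all genes at the unadjusted threshold was not counted, and edgeR called 7.2% of all genes lower. Summed over each list, wild-type library B lay much closer to the *meg-1 meg-2* libraries than to wild-type library A. The pharynx sum was 408 and 402 fpm in *meg-1 meg-2* and 631 and 413 fpm in wild-type libraries A and B, the neuron sum was 390.3 and 384 fpm in *meg-1 meg-2* and 505 and 398 fpm in wild type, and the gut sum was 579 and 591 fpm in *meg-1 meg-2* and 838 and 599 fpm in wild-type libraries A and B. Of 15 yolk protein, sperm and adult cuticle genes, 13 were under 1 fpm.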
